A study of Mus musculus with 20 samples.

Results

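The genes described here are 38 genes of glucose uptake and glycolysis: glucose and lactate transporters, hexokinases, the enzymes that split glucose into pyruvate, those that decide what becomes of pyruvate, and enzymes of the pentose phosphate branch and glycogen entry. They were chosen by name from the gene names of the array, and each gene was read by its brightest probe over the 20 arrays. Of 30199 gene names on the array, 36 members were found under the listed symbol. Pkm2 and Tigar are held there as Pkm and 9630033F20Rik, and their values are given apart from the counts. Of the 36 members, 34 passed the filter for a test, which asked for a signal above background on both arrays of at least 1 group. Hk3, a hexokinase known from myeloid cells, was above background on 2 of 20 arrays, and Fbp1, an enzyme of the reverse pathway, on 3 of 20, so neither was tested.

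RNA came from CD4 T cells sorted out of mice of the strain B6.Cg-Foxp3<tm1Mal>, which carry a green fluorescent protein that reports the transcription factor Foxp3. Each of the 20 samples was pooled from 8 to 15 mice of both sexes, aged 8 to 14 weeks, and was read on 1 single-colour Agilent array. Peripheral lymph nodes (pLN) were taken 12 or 25 days (d12, d25) after subcutaneous immunisation with KLH in Alum, while the labels give no immunisation for Peyer's patches (PP), the lymphoid follicles of the gut wall. The study's methods, however, describe sorts of PP or pLN cells 12 or 25 days after that immunisation. The mice that gave PP may thus have been immunised too. The pLN groups were naive T cells (no Foxp3 reporter, low PD1, GL7-), T follicular helper (TFH) cells (no reporter, high PD1, GL7+), regulatory T (Treg) cells (reporter, low PD1, GL7-) and T follicular regulatory (TFR) cells (reporter, high PD1, GL7+ or GL7-), with 2 arrays each on d12 and 1 array each on d25. PP gave 4 groups of 2 arrays each, which were TFH cells with GL7, TFH cells without GL7 (GL7-), Treg cells and TFR cells.

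T cells that divide or make effector molecules take up more glucose and turn much of it into lactate, which leaves the cell through monocarboxylate carriers. Glucose enters through carriers of the GLUT family, is trapped by hexokinases, is committed to breakdown by phosphofructokinase, and is split by aldolase and triose phosphate isomerase into 3-carbon sugars that give ATP on the way to pyruvate. Several steps have isozymes encoded by different genes, and hypoxia-inducible factor 1 (HIF-1), of which Hif1a encodes the regulated subunit, is a well known activator of many of them. In follicles, TFH cells help B cells in germinal centres, and TFR cells restrain that reaction.

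The 5 slides each held 4 arrays of 1 tissue and day: replicate 1 of pLN d12 on slide 1, replicate 2 on slide 2, pLN d25 on slide 3, and the replicates of PP on slides 4 and 5. Slides 1 and 4 were made from 50 ng of RNA per sample, the rest from 40 ng. Tissue and day therefore cannot be told apart from slide. Between 43.0% and 58.0% of probes were above background per array, and no probe was saturated. Foxp3 read 13409 to 35130 on the 10 Treg and TFR arrays and 27 to 192 on the 10 others. In pLN d12, all 5 naive T markers were lower and all 4 follicular markers higher in TFH than in naive T cells. Not every marker followed the labels. Il2ra, a Treg and TFR marker, read 1191 and 3268 on the PP TFR arrays and 13579 and 17257 on the PP Treg arrays. On the pLN TFR arrays Il2ra read 14256 to 18067. The study also reports that TFR cells of PP, and not those of pLN, lose Il2ra. Summed intensity of 13 B-cell genes was 68408 to 230130 on slide 4, 16292 to 53062 on slide 5 and 8271 to 86617 on slides 1 to 3, and that of 7 epithelial genes was 3525 to 8234 on slide 4 and 743 to 2264 on slide 5. Results of PP are for that reason also given without slide 4, which leaves 1 array per PP group. Leaving out that slide also leaves fewer residual degrees of freedom in the model. A call among pLN groups can then be lost with its difference unchanged, because it uses no array of slide 4. The part of such cells in the results was not tested.

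Promoter sequences are shown for the 5 members called higher in all 3 follicular comparisons and for Hk2, which was called higher in both follicular comparisons of pLN d12, because HIF-1 binds a known core, ACGTG or GCGTG. Each is the 250 bases before the first RefSeq start of the gene on build GRCm38.p6, written 5′ to 3′ on the strand of the gene, with every core on either strand in capitals (CACGT and CACGC are the same cores on the opposite strand).
Slc16a3 (chr11:120948817-120949066, + strand): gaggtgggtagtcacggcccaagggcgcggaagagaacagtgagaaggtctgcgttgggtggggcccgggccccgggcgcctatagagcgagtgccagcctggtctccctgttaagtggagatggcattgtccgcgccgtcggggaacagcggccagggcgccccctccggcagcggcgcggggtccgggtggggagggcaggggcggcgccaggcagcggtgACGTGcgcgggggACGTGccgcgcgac
Hk2 (chr6:82774455-82774704, - strand): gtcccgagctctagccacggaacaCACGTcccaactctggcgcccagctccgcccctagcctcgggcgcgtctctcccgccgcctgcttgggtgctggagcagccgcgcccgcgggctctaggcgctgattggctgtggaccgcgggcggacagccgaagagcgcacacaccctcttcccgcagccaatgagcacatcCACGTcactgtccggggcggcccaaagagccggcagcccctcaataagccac
Tbc1d4 (chr14:101609192-101609441, - strand): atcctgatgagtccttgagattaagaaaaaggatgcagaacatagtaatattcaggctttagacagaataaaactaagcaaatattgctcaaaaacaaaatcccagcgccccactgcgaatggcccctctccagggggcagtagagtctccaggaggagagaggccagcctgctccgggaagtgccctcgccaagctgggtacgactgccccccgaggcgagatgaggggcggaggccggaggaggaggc
Aldoc (chr11:78322823-78323072, + strand): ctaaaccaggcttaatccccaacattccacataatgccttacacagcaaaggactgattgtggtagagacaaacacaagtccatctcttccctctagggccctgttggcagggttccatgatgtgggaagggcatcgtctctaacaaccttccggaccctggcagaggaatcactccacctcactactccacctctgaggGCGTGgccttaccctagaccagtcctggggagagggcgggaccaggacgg
Tpi1 (chr6:124814159-124814408, - strand): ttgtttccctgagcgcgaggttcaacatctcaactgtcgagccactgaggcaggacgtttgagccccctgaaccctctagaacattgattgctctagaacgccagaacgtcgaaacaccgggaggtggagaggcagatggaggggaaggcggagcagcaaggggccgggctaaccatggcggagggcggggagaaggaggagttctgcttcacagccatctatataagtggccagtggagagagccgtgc
Pgam1 (chr19:41911621-41911870, + strand): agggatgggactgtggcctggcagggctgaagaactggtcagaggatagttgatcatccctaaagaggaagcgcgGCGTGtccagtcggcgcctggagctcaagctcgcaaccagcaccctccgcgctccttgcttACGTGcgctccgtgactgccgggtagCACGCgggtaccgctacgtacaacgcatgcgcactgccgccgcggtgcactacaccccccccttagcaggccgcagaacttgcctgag

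Slc16a3 and Hk2 hold 2 cores each, Pgam1 holds 3, Aldoc holds 1, and Tbc1d4 and Tpi1 hold none in this window. Of 37 members with a promoter in the RefSeq table, 28 (75.7%) hold a core, as do 11 of 14 (78.6%) of those called in at least 1 follicular comparison and 10431 of 27025 (38.6%) of all genes of the table. A match is a match of letters, and binding was not measured.

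Intensities below are normalised to a 75th percentile of 1500 on each array and carry no further unit. A difference is the difference of the 2 group means on the log2 scale, printed with ± its standard error (SE) from 1 limma model of all 12 groups, and a probe is called when its Benjamini-Hochberg adjusted p over 22264 tested probes is under 0.05 and the difference is at least 1 in size. Levels are compared between groups for 1 probe, never between genes, because probes differ in brightness. In sorted bulk samples, fewer cells that express a gene and less RNA per cell cannot be told apart.

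Follicular cells of both lineages were higher for the lactate carrier Slc16a3, for Tbc1d4, which holds back glucose carriers, and for Aldoc, Tpi1 and Pgam1, which encode enzymes of the middle of glycolysis. In pLN d12, 9 of 34 members were higher and 2 lower in TFH than in naive T cells, where 9.27% of all tested probes were called higher and 5.48% lower. TFR cells of pLN d12 were higher than Treg cells for 6 members and lower for 0 (5.79% and 2.56% of all probes). In PP, TFR cells were higher than Treg cells for 10 members and lower for 1 (6.23% and 3.02%). The median difference over the 34 members was 0.20, 0.25 and 0.49 in these comparisons, against -0.09, -0.08 and -0.05 over all tested probes. The 5 members called higher in all 3 were Slc16a3, Tbc1d4, Aldoc, Tpi1 and Pgam1. The 6 members called in TFR cells of pLN were all among the 11 called in TFH cells (54.5% of those). Both comparisons lack a common array, but they share slides 1 and 2 and 1 model, so they are not independent. Over all 34 members, called or not, 28, 33 and 31 had the same sign on both slides of the 3 follicular comparisons. Shares of all probes for these overlaps and signs are not given here. Fits of the compared groups alone, which hold few residual degrees of freedom, called 8, 4 and 0 members in these comparisons. The 6 calls in TFR cells of pLN d12 were 2 without pLN d12 Treg replicate 2 and 2 without pLN d12 TFR replicate 2, and the 11 in TFR cells of PP were 6 without PP Treg replicate 2. Without slide 4, 8 members were called for TFR against Treg cells of PP (7 higher and 1 lower), with Tbc1d4, Pfkp, Pfkfb4 and Eno2 lost and Pgm2 gained, and 7 for GL7+ TFH against Treg cells (5 higher and 2 lower), with Tbc1d4 and Tpi1 lost and Gapdh gained.

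**Figure D1:**
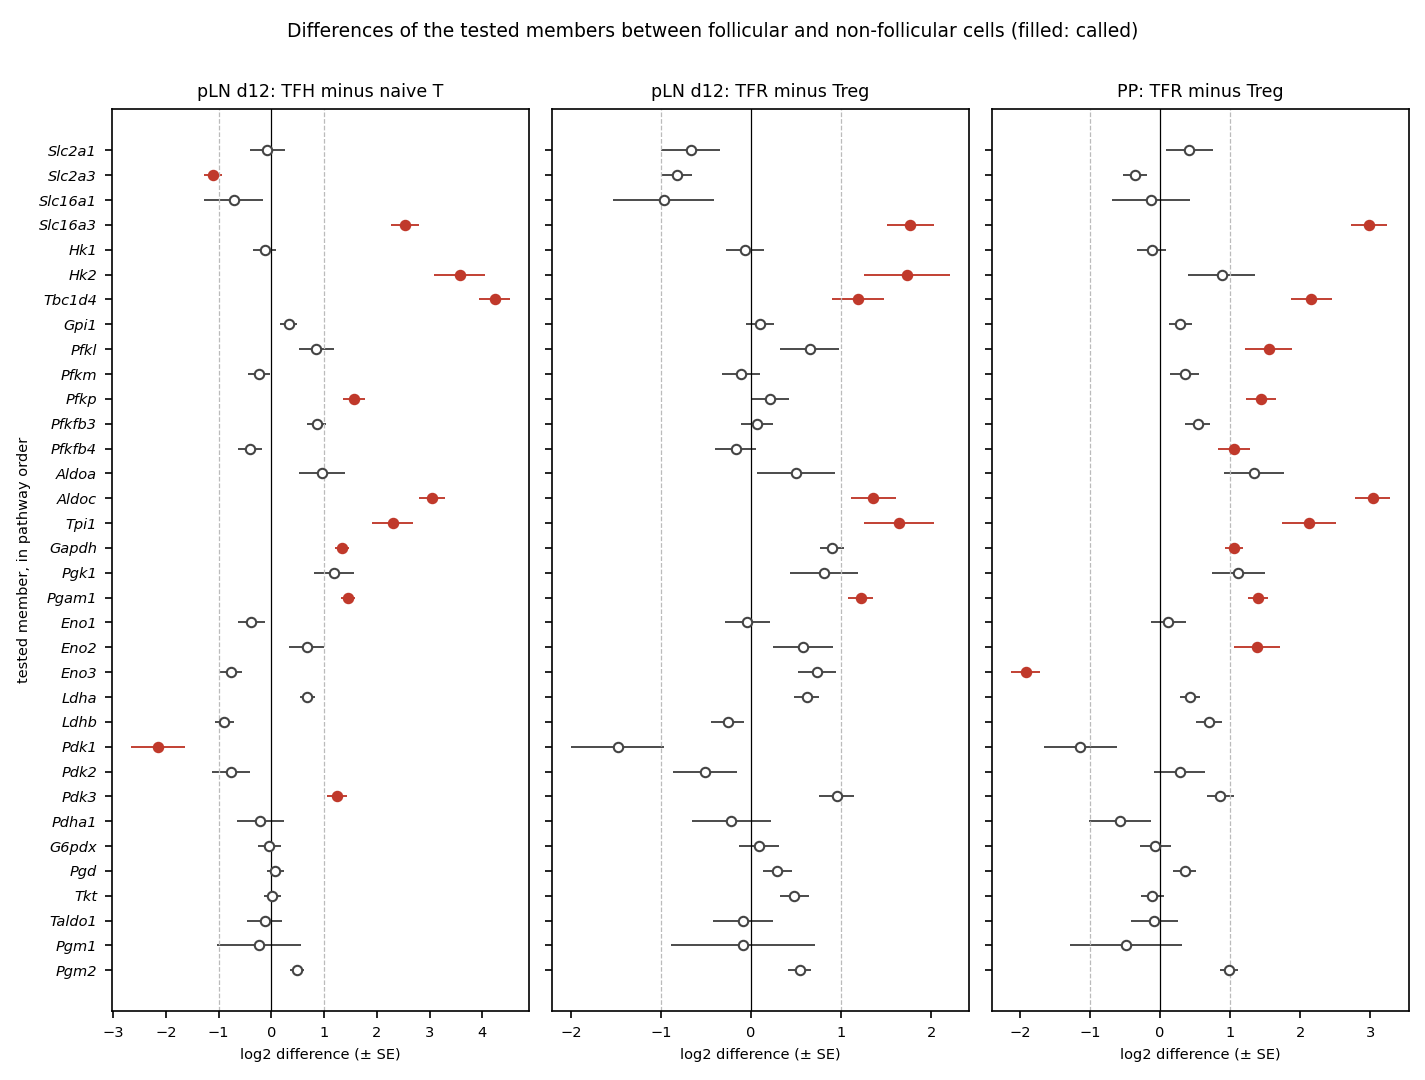
Log2 difference of 34 tested members, by role, in 3 comparisons of follicular with non-follicular cells (TFH minus naive T in pLN d12, TFR minus Treg in pLN d12, TFR minus Treg in PP). Points are differences of group means of 2 arrays each and bars are 1 SE from limma; filled red points are called, 11, 6 and 11 of them, and Slc16a3, Tbc1d4, Aldoc, Tpi1 and Pgam1 are red and right of 0 in all 3 panels.

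By role, 3 of 7 tested members of glucose and lactate transport and the first step rose and 1 fell in TFH against naive T cells, 3 and 0 did so in TFR against Treg cells of pLN d12, and 2 and 0 in PP. Of 9 in upper glycolysis, 3, 2 and 5 rose and 0 fell. Of 6 in lower glycolysis, 2, 1 and 3 rose, and 1 fell in PP (Eno3). Of 6 that act on pyruvate, 1 rose (Pdk3) and 1 fell (Pdk1) in TFH cells, and 0 were called in TFR cells of either tissue. Of 6 in the pentose phosphate branch and glycogen entry, 0 were called.

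Treg cells of pLN d12 were higher than naive T cells for 5 members (Slc2a3, Slc16a3, Hk2, Tbc1d4 and Eno3) and lower for 1 (Pfkfb4), with 2.86% and 0.898% of all probes called. TFR against TFH cells gave 3 higher and 2 lower in pLN d12 (2.81% and 2.2%), and 5 higher and 0 lower in PP (2.34% and 1.09%). GL7+ TFH cells of PP were higher than Treg cells for 6 members (Tbc1d4, Pfkl, Pfkp, Aldoc, Tpi1 and Pgam1) and lower for 2 (Slc2a3 and Eno3), with 5.26% and 4.62% of all probes called. limma's F test over all 12 groups, with its own threshold of p under 0.001 and adjusted p under 0.005, called 17 members, 17.3% being the share of all probes. It called Tkt and Pgm2, which no single comparison called, and did not call Pdk1 and Pdk2, which at least 1 comparison did. Of the 34 tested members, 17 were called in none of 18 comparisons by their brightest probe, among them Slc2a1, Hk1, Gpi1, Aldoa, Pgk1, Ldha and all 6 members of the pentose phosphate branch and glycogen entry. The share of all probes called in none is not given here. For Hk1, Pgk1 and Eno1 the brightest probe is placed away from the gene. The Pgk1 probe on the X chromosome was called in TFH against naive T cells and in TFR against Treg cells of PP.

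**Figure D2:**
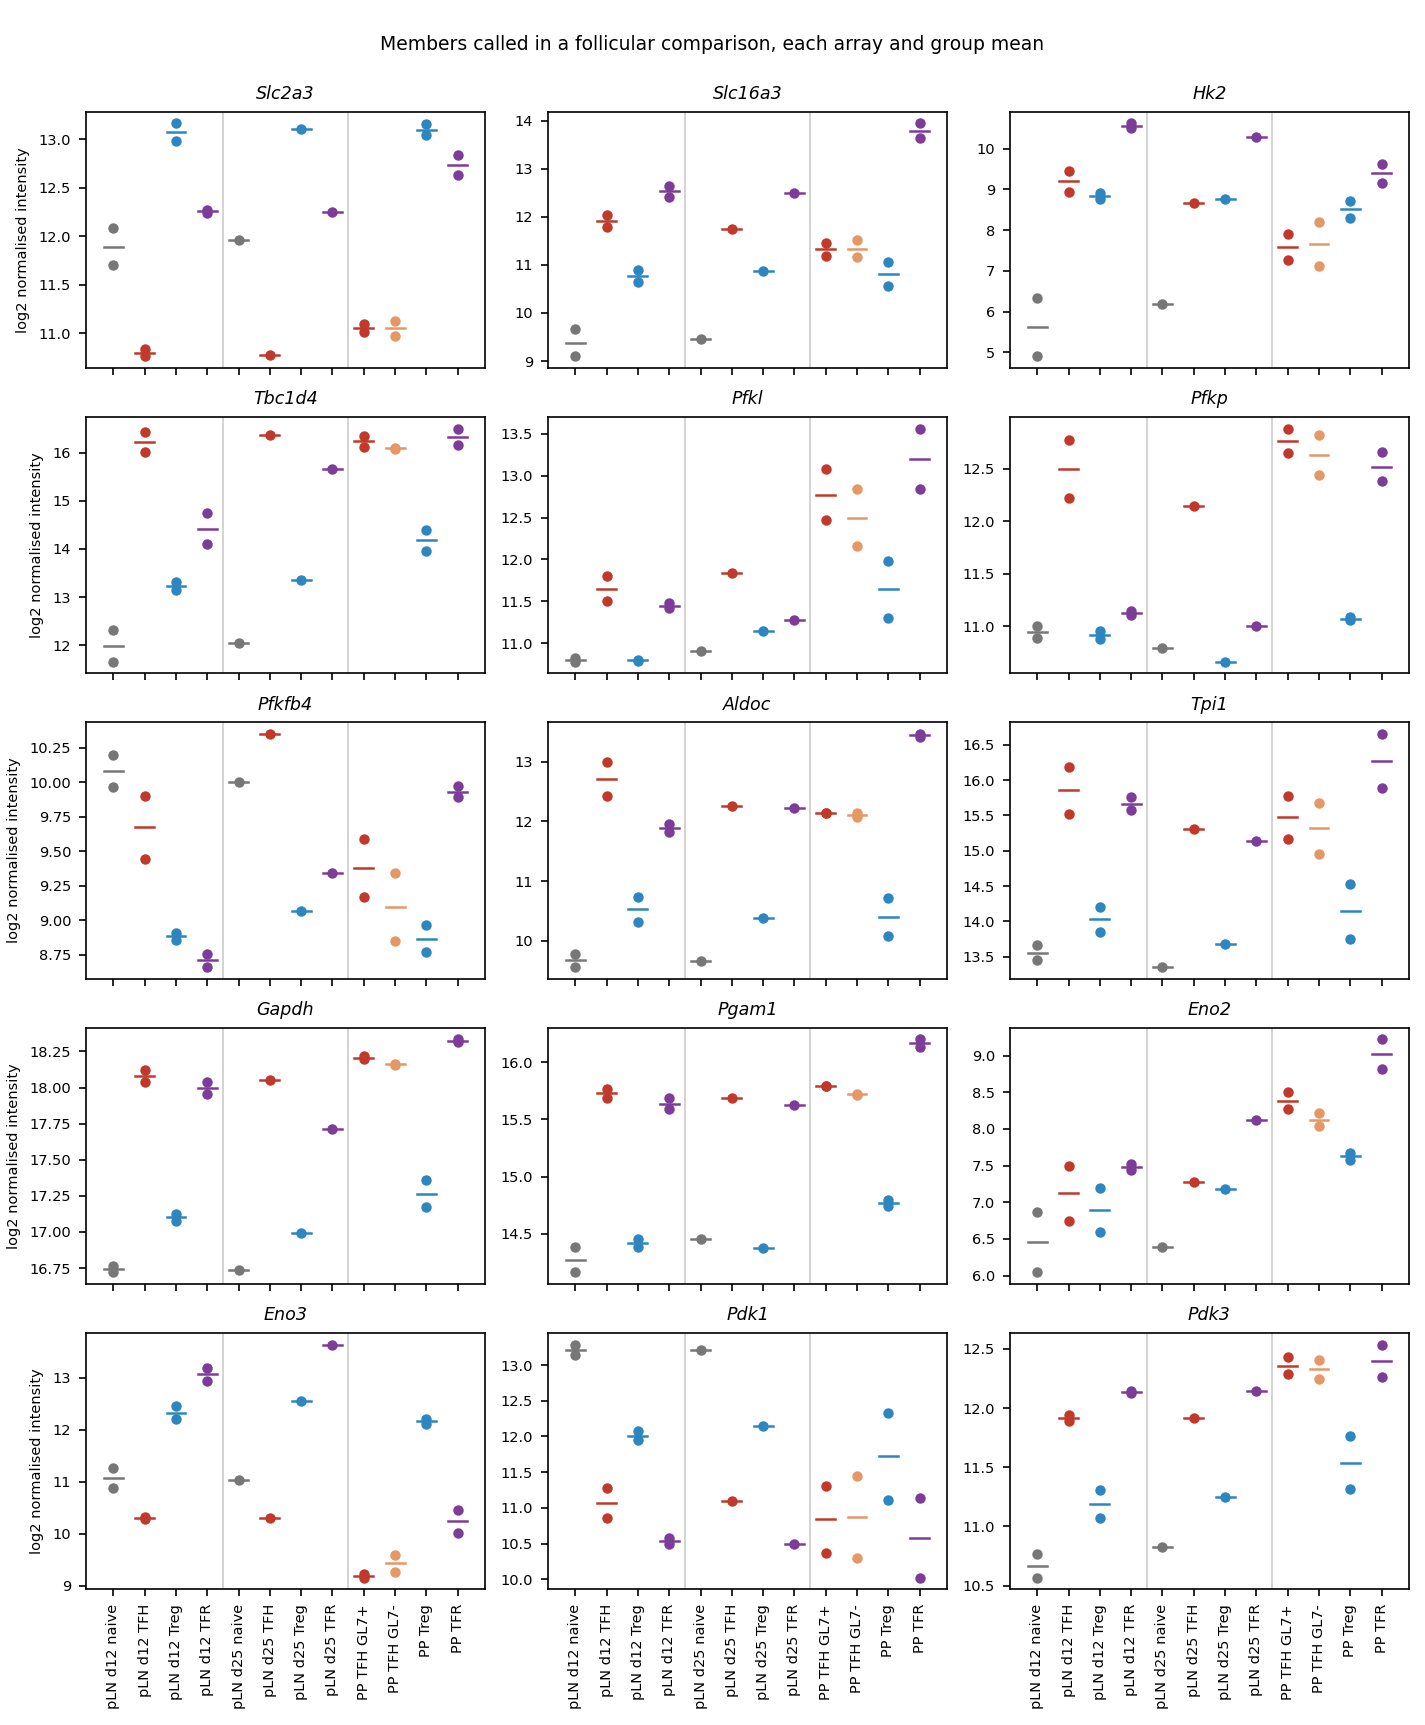
Log2 normalised intensity of the 15 members called in at least 1 of the 3 follicular comparisons, on every array. Points are arrays (2 per group, 1 in pLN d25), lines are group means, and the 12 groups run along the x axis; Hk2 is lowest in naive T cells and Slc16a3 highest in PP TFR cells, while Eno3 is high in Treg cells of both tissues and low in TFR cells of PP.

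Slc16a3 encodes MCT4, a carrier that exports lactate from cells with high glycolysis, and its probe lies at chromosome 11, 120820030 to 120820089, + strand of mm9. Slc16a3 read 813 and 549 on the naive T arrays of pLN d12, 4196 and 3549 on the TFH arrays, 1890 and 1591 on the Treg arrays and 5468 and 6402 on the TFR arrays. For Slc16a3 on d25, the naive T, TFH, Treg and TFR arrays read 699, 3442, 1885 and 5787. In PP, Slc16a3 intensities were 2797 and 2338 in GL7+ TFH, 2919 and 2302 in GL7- TFH, 2134 and 1500 in Treg and 15796 and 12731 in TFR cells. Naive T cells were lowest and TFR cells highest in pLN on both days, and in PP both TFR arrays stood far above the other 6. TFH cells rose over naive T cells by 2.53 ± 0.26 (adjusted p 7.88e-05), a fold of 5.78, and Treg cells over naive T cells by 1.38 ± 0.26 (adjusted p 0.0125). From Treg to TFR cells the difference was 1.77 ± 0.26 (adjusted p 0.0019) in pLN and 2.99 ± 0.26 (adjusted p 8.16e-05) in PP. In PP, TFR cells also exceeded GL7+ TFH cells by 2.47 ± 0.26 (adjusted p 0.000414), whereas in pLN the TFR minus TFH difference of 0.62 ± 0.26 (adjusted p 0.264) was not called. Another Slc16a3 probe gave 2.64 ± 0.28 for TFH minus naive T and 1.78 ± 0.28 for TFR minus Treg in pLN d12, and was called in all 3 follicular comparisons. The Slc16a3 call for Treg against naive T cells was lost without pLN d12 Treg replicate 1 or pLN d12 naive replicate 2 (1.09 to 1.25).

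Hk2 encodes the inducible hexokinase that traps glucose in the cell (chromosome 6, 82675056 to 82675115, - strand of mm9). Hk2 read 30 and 81 on the naive T arrays of pLN d12, 490 and 704 on the TFH arrays, 481 and 434 on the Treg arrays and 1449 and 1583 on the TFR arrays. For Hk2 on d25, the naive T, TFH, Treg and TFR arrays read 73, 407, 439 and 1251. In PP, Hk2 intensities were 155 and 241 in GL7+ TFH, 140 and 295 in GL7- TFH, 316 and 424 in Treg and 574 and 788 in TFR cells. All 3 naive T arrays were below background, so the naive level is only a bound, and TFR cells were highest in each tissue. Hk2 was at least 9.55-fold higher in TFH and at least 7.43-fold higher in Treg than in naive T cells of pLN d12 (adjusted p 0.000446 and 0.00323), and at least 3.48-fold higher in TFH than in naive T cells of d25 (adjusted p 0.047). TFR cells exceeded Treg cells of pLN d12 by 1.73 ± 0.48 (adjusted p 0.0421), and in PP by 0.88 ± 0.48 (adjusted p 0.328), which was not called. TFR cells held more Hk2 signal than TFH cells by 1.37 ± 0.48 (adjusted p 0.157) in pLN d12 and 1.80 ± 0.48 (adjusted p 0.0771) in PP. Neither was called, but with slide as a fixed block both were (same differences, adjusted p 0.0196 and 0.0087). The Hk2 call for TFR against Treg cells of pLN d12 was lost without any 1 of 12 arrays (either array of pLN d12 TFH, pLN d12 Treg, pLN d12 TFR, PP TFH GL7+, PP Treg or PP TFR, at 1.65 to 1.80), with every probe tested (1.73), with no moderation (1.73) and without slide 4 (1.73). The Hk2 call for TFH against naive T cells of d25 was lost without any 1 of 12 arrays (either array of pLN d12 TFH, pLN d12 Treg, pLN d12 TFR, PP TFH GL7+, PP Treg or PP TFR, at 2.47), with no feature filter (2.29), with every probe tested (2.47), with no moderation (2.47) and without slide 4 (2.47). The values of that call are fitted differences from a naive level below background.

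Tbc1d4 encodes AS160, a Rab GTPase-activating protein that holds glucose carriers inside the cell until insulin or contraction signals release it in muscle and fat (chromosome 14, 101841577 to 101841636, - strand of mm9). Tbc1d4 read 3237 and 5132 on the naive T arrays of pLN d12, 88341 and 66635 on the TFH arrays, 9054 and 10154 on the Treg arrays and 17533 and 27349 on the TFR arrays. For Tbc1d4 on d25, the naive T, TFH, Treg and TFR arrays read 4218, 84884, 10531 and 51744. In PP, Tbc1d4 intensities were 83559 and 71696 in GL7+ TFH, 70714 and 68961 in GL7- TFH, 15939 and 21671 in Treg and 73783 and 92971 in TFR cells. TFH arrays of both tissues and TFR arrays of PP formed the upper range from 66635 to 92971, TFR arrays of pLN d12 lay at 17533 and 27349, and no Treg or naive T array was above 21671. TFH cells exceeded naive T cells by 4.23 ± 0.29 (adjusted p 8.46e-06), a fold of 18.8. The TFR minus Treg difference was 1.19 ± 0.29 (adjusted p 0.0251) in pLN d12, 2.30 ± 0.41 (adjusted p 0.0117) on d25 and 2.16 ± 0.29 (adjusted p 0.000945) in PP. TFR cells of pLN d12 were lower than TFH cells by a difference of -1.81 ± 0.29 (adjusted p 0.00459). In PP the TFR minus TFH difference was 0.10 ± 0.29 (adjusted p 1), and GL7+ TFH cells exceeded Treg cells by 2.06 ± 0.29 (adjusted p 0.00101). Treg cells of pLN d12 exceeded naive T cells by 1.23 ± 0.29 (adjusted p 0.0423). The Tbc1d4 call for Treg against naive T cells was lost without any 1 of 11 arrays (either array of pLN d12 TFH, pLN d12 Treg, PP TFH GL7+, PP TFH GL7- or PP TFR, and pLN d12 naive replicate 1, at 0.90 to 1.32), with every probe tested (1.23), with no moderation (1.23) and without slide 4 (1.23).

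A dimmer Tbc1d4 probe lay below background on both naive T and both Treg arrays of pLN d12, and there it was at least 4.28-fold higher in TFH than in naive T and at least 2.72-fold higher in TFR than in Treg cells, both called. In PP it gave 0.33 ± 0.47 for TFR minus Treg and -0.23 ± 0.47 for GL7+ TFH minus Treg, neither called. On the dimmer probe TFH cells of PP were lower than those of pLN by a difference of -2.14 ± 0.47, which was called, where the brighter probe gave 0.01 ± 0.29 (adjusted p 0.993). The rise of Tbc1d4 in follicular cells of PP thus rests on the brighter probe. The Tbc1d4 call for TFR against Treg cells of pLN d12 was lost without any 1 of pLN d12 Treg replicate 1, pLN d12 Treg replicate 2 or pLN d12 TFR replicate 2 (0.87 to 1.27) and without slide 4 (1.19). The Tbc1d4 call for TFR against TFH cells of pLN d12 was lost without pLN d12 TFH replicate 1 (-1.61). The Tbc1d4 call for TFR against Treg cells of PP was lost without slide 4 (2.10). The Tbc1d4 call for GL7+ TFH against Treg cells of PP was lost without slide 4 (1.73).

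Slc2a3 encodes GLUT3, a glucose carrier of high affinity found in neurons and lymphocytes (chromosome 6, 122678075 to 122678134, - strand of mm9). Slc2a3 read 4350 and 3325 on the naive T arrays of pLN d12, 1736 and 1823 on the TFH arrays, 9199 and 8079 on the Treg arrays and 4849 and 4942 on the TFR arrays. For Slc2a3 on d25, the naive T, TFH, Treg and TFR arrays read 3997, 1756, 8793 and 4869. In PP, Slc2a3 intensities were 2062 and 2180 in GL7+ TFH, 2240 and 2009 in GL7- TFH, 9122 and 8444 in Treg and 6365 and 7305 in TFR cells. Treg cells were highest and TFH cells lowest in each tissue and day, with no overlap between the Treg, TFR and TFH arrays. TFH cells were lower than naive T cells by a difference of -1.10 ± 0.17 (adjusted p 0.00107), and Treg cells were higher than naive T cells by 1.18 ± 0.17 (adjusted p 0.00263). TFR cells exceeded TFH cells by 1.46 ± 0.17 (adjusted p 0.000644) in pLN d12 and 1.69 ± 0.17 (adjusted p 0.000336) in PP, and relative to Treg cells differed by -0.82 ± 0.17 (adjusted p 0.0112) in pLN d12 and -0.36 ± 0.17 (adjusted p 0.233) in PP, neither called. In PP, GL7+ TFH cells were lower than Treg cells by a difference of -2.05 ± 0.17 (adjusted p 3.39e-05). The Slc2a3 call for TFH against naive T cells of pLN d12 was lost without pLN d12 naive replicate 1 (-0.90). The Slc2a3 call for Treg against naive T cells was lost without pLN d12 naive replicate 2 (0.99).

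Slc2a1, which encodes GLUT1, the carrier most often tied to activated T cells, was called in no comparison of the model without a slide block. Its intensity lay between 6380 and 17058 over the 20 arrays, and the TFH minus naive T difference was -0.08 ± 0.33 (adjusted p 0.925). On each slide of pLN the Treg array was the highest for Slc2a1, and on both slides of PP the TFR array was. TFR minus Treg for Slc2a1 was -0.67 in pLN d12 and 0.42 in PP, which lie 1.09 apart (adjusted p 0.577), and this was called with slide as a fixed block (adjusted p 0.00575). The lactate and pyruvate carrier Slc16a1 (MCT1) was dim, from 154 to 1182, with a TFH minus naive T difference of -0.71 ± 0.56 (adjusted p 0.469). PP minus pLN d12 for Slc16a1 was 2.05 ± 0.56 (adjusted p 0.063) in TFH and 1.79 ± 0.56 (adjusted p 0.0558) in TFR cells, neither called, but both were with slide as a random block (adjusted p 0.0338 and 0.0242). Hk1, the hexokinase of most tissues, varied by 0.46 on the log2 scale between its lowest and highest group mean. The brightest Hk1 probe is placed on chromosome 5 by the array annotation, while the other Hk1 probes lie on chromosome 10. Only the brightest of the 3 tested Hk1 probes is given here.

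Phosphofructokinase, the step that commits glucose to breakdown, is encoded by Pfkl, Pfkm and Pfkp. Pfkp, known from platelets (chromosome 13, 6581718 to 6583872, - strand of mm9), separated TFH cells from all others in pLN. Pfkp read 1896 and 2052 on the naive T arrays of pLN d12, 7031 and 4787 on the TFH arrays, 1991 and 1880 on the Treg arrays and 2271 and 2203 on the TFR arrays. For Pfkp on d25, the naive T, TFH, Treg and TFR arrays read 1776, 4527, 1624 and 2059. In PP, Pfkp intensities were 7562 and 6437 in GL7+ TFH, 7259 and 5567 in GL7- TFH, 2140 and 2173 in Treg and 6455 and 5336 in TFR cells. In pLN the TFH arrays lay at 4527 to 7031 and all other arrays at 1624 to 2271, while in PP the TFH and TFR arrays lay at 5336 to 7562 and the Treg arrays at 2140 and 2173. The difference was 1.56 ± 0.21 (adjusted p 0.000517) for TFH minus naive T, 0.21 ± 0.21 (adjusted p 0.669) for TFR minus Treg in pLN, 1.44 ± 0.21 (adjusted p 0.00153) for TFR minus Treg in PP and 1.69 ± 0.21 (adjusted p 0.000477) for GL7+ TFH minus Treg in PP. TFR cells of pLN d12 were lower than TFH cells (-1.37 ± 0.21, adjusted p 0.00363). Another Pfkp probe gave 1.62 ± 0.28, 0.18 ± 0.28 and 1.43 ± 0.28 in the 3 follicular comparisons. The Pfkp call for TFR against Treg cells of PP was lost without slide 4 (1.30).

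Pfkl is the liver type (chromosome 10, 77450926 to 77450985, - strand of mm9). Pfkl read 1762 and 1810 on the naive T arrays of pLN d12, 3562 and 2902 on the TFH arrays, 1780 and 1777 on the Treg arrays and 2855 and 2736 on the TFR arrays. For Pfkl on d25, the naive T, TFH, Treg and TFR arrays read 1920, 3675, 2274 and 2482. In PP, Pfkl intensities were 8630 and 5694 in GL7+ TFH, 7326 and 4561 in GL7- TFH, 4046 and 2535 in Treg and 12095 and 7319 in TFR cells. PP TFR cells were the highest group, and within each PP slide the TFR array stood above the TFH arrays and these above the Treg array. TFR cells exceeded Treg cells in PP by 1.55 ± 0.33 (adjusted p 0.0122) and GL7+ TFH cells exceeded Treg cells by 1.13 ± 0.33 (adjusted p 0.0494), while in pLN d12 the TFH minus naive T difference of 0.85 ± 0.33 (adjusted p 0.11) and the TFR minus Treg difference of 0.65 ± 0.33 (adjusted p 0.285) were not called. The Pfkl call for TFR against Treg cells of PP was lost without PP TFR replicate 1 or PP Treg replicate 2 (1.19 to 1.22). The Pfkl call for GL7+ TFH against Treg cells of PP was lost without any 1 of 11 arrays (either array of pLN d12 naive, pLN d12 TFH, pLN d12 Treg, pLN d12 TFR or PP TFH GL7+, and PP Treg replicate 2, at 0.79 to 1.43), with every probe tested (1.13) and with no moderation (1.13). Pfkm, the muscle type, varied by 0.51 on the log2 scale over the groups and was called nowhere.

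The bifunctional enzymes Pfkfb3 and Pfkfb4 set the level of fructose 2,6-bisphosphate, which activates phosphofructokinase. Pfkfb4 read 1172 and 999 on the naive T arrays of pLN d12, 957 and 695 on the TFH arrays, 463 and 481 on the Treg arrays and 405 and 433 on the TFR arrays. For Pfkfb4 on d25, the naive T, TFH, Treg and TFR arrays read 1024, 1304, 536 and 649. In PP, Pfkfb4 intensities were 768 and 576 in GL7+ TFH, 649 and 462 in GL7- TFH, 499 and 437 in Treg and 1005 and 948 in TFR cells. Pfkfb4 (chromosome 9, 108934652 to 108934711, + strand of mm9) was lower in Treg than in naive T cells by a difference of -1.20 ± 0.23 (adjusted p 0.0133), and TFR cells exceeded Treg cells of PP by 1.06 ± 0.23 (adjusted p 0.0123). In pLN d12 TFR minus Treg was -0.17 ± 0.23 (adjusted p 0.764). Both PP TFR arrays exceeded the other PP arrays. The Pfkfb4 call for TFR against Treg cells of PP was lost without any 1 of PP TFR replicate 1, PP Treg replicate 2 or PP TFR replicate 2 (0.97 to 1.11), with normexp background (0.91) and without slide 4 (1.12). The Pfkfb4 call for Treg against naive T cells was lost without any 1 of pLN d12 naive replicate 1, pLN d12 Treg replicate 1 or pLN d12 Treg replicate 2 (-1.22 to -1.08). Pfkfb3 differed by 0.86 ± 0.18 (adjusted p 0.00622) between TFH and naive T cells, under the minimum size for a call.

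Aldolase splits the phosphorylated sugar, and Aldoc, whose product is best known from brain (chromosome 11, 78140198 to 78140257, + strand of mm9), was among the members with the largest differences. Aldoc read 882 and 757 on the naive T arrays of pLN d12, 8206 and 5471 on the TFH arrays, 1710 and 1276 on the Treg arrays and 3614 and 3977 on the TFR arrays. For Aldoc on d25, the naive T, TFH, Treg and TFR arrays read 808, 4899, 1332 and 4768. In PP, Aldoc intensities were 4538 and 4519 in GL7+ TFH, 4520 and 4302 in GL7- TFH, 1681 and 1083 in Treg and 11314 and 10927 in TFR cells. Naive T and Treg arrays lay between 757 and 1710, the TFH arrays between 4302 and 8206, and the PP TFR arrays at 11314 and 10927, with no overlap between these ranges, while TFR arrays of pLN, at 3614 to 4768, overlapped the TFH arrays. TFH cells exceeded naive T cells by 3.04 ± 0.25 (adjusted p 2.57e-05), a fold of 8.2, and on d25 by 2.60 ± 0.36 (adjusted p 0.00127). TFR cells exceeded Treg cells by 1.36 ± 0.25 (adjusted p 0.00667) in pLN d12, 1.84 ± 0.36 (adjusted p 0.0171) on d25 and 3.04 ± 0.25 (adjusted p 6.87e-05) in PP. In PP, TFR cells were higher than GL7+ TFH cells (1.30 ± 0.25, adjusted p 0.0175), and in pLN d12 the difference of -0.82 ± 0.25 (adjusted p 0.104) had the opposite sign and was not called. The Aldoc call for TFR against Treg cells of pLN d12 was lost without pLN d12 Treg replicate 2 or pLN d12 TFR replicate 2 (1.15 to 1.29). The Aldoc call for TFR against GL7+ TFH cells of PP was lost without any 1 of PP TFH GL7+ replicate 1, PP TFR replicate 1, PP TFH GL7+ replicate 2 or PP TFR replicate 2 (1.27 to 1.32) and without slide 4 (1.27). Aldoa, the aldolase of most tissues, gave 0.96 ± 0.43 (adjusted p 0.169) for TFH minus naive T and 1.34 ± 0.43 (adjusted p 0.0762) for TFR minus Treg in PP, neither called. With slide as a fixed block the latter was called (adjusted p 0.000153), as was GL7+ TFH minus Treg (a difference of 1.12, adjusted p 0.000313).

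Triose phosphate isomerase, encoded by Tpi1 (chromosome 6, 124760947 to 124761006, - strand of mm9), interconverts the products of that split so that both go on down the pathway. Tpi1 read 13002 and 11217 on the naive T arrays of pLN d12, 74678 and 47180 on the TFH arrays, 18842 and 14837 on the Treg arrays and 55458 and 48770 on the TFR arrays. For Tpi1 on d25, the naive T, TFH, Treg and TFR arrays read 10496, 40589, 13166 and 36000. In PP, Tpi1 intensities were 56329 and 36935 in GL7+ TFH, 52503 and 31658 in GL7- TFH, 23739 and 13787 in Treg and 103073 and 60872 in TFR cells. In pLN the TFH and TFR arrays lay at 36000 to 74678 and the naive T and Treg arrays at 10496 to 18842, and within each PP slide the order was TFR, TFH, Treg. TFH cells exceeded naive T cells by 2.30 ± 0.39 (adjusted p 0.00188), and TFR cells exceeded Treg cells by 1.64 ± 0.39 (adjusted p 0.022) in pLN d12 and 2.13 ± 0.39 (adjusted p 0.00532) in PP. Of 2 tested Tpi1 probes, only the brighter is given here. The d25 difference of 1.95 ± 0.55 (adjusted p 0.0545) for TFH minus naive T was not called, but was with slide as a fixed block (adjusted p 0.000154). The Tpi1 call for TFR against Treg cells of pLN d12 was lost without any 1 of pLN d12 Treg replicate 1, pLN d12 TFR replicate 1, pLN d12 Treg replicate 2 or pLN d12 TFR replicate 2 (1.46 to 1.81) and with every probe tested (1.64). The Tpi1 call for TFR against Treg cells of PP was lost without PP Treg replicate 2 (1.74). GL7+ TFH cells of PP exceeded Treg cells by 1.33 ± 0.39 (adjusted p 0.0483). The Tpi1 call for GL7+ TFH against Treg cells of PP was lost without any 1 of 9 arrays (either array of pLN d12 naive, pLN d12 Treg, pLN d12 TFR or PP TFH GL7+, and PP Treg replicate 2, at 0.94 to 1.64), with every probe tested (1.33), with no moderation (1.33) and without slide 4.

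Gapdh encodes the dehydrogenase that makes the first NADH of the pathway, often used as a reference gene. Gapdh read 111246 and 108025 on the naive T arrays of pLN d12, 285533 and 268712 on the TFH arrays, 142886 and 138440 on the Treg arrays and 269514 and 254164 on the TFR arrays. For Gapdh on d25, the naive T, TFH, Treg and TFR arrays read 109366, 271539, 130185 and 214765. In PP, Gapdh intensities were 299999 and 305307 in GL7+ TFH, 293927 and 292180 in GL7- TFH, 168338 and 147627 in Treg and 330456 and 326223 in TFR cells. Follicular arrays lay between 214765 and 330456 and the naive T and Treg arrays between 108025 and 168338, so the ranges did not overlap. The difference was 1.34 ± 0.13 (adjusted p 6.85e-05) for TFH minus naive T, 0.90 ± 0.13 (adjusted p 0.00208) for TFR minus Treg in pLN d12, under the minimum size, and 1.06 ± 0.13 (adjusted p 0.000625) in PP. With scaling to the 75th percentile alone, in place of quantile normalisation, the first and last differences were 0.65 and 0.38 and were not called. On d25 the TFH minus naive T difference was 1.31 ± 0.19 (adjusted p 0.00158), and 0.60 with that scaling, not called. The brightest Gapdh probe is placed on the X chromosome (chromosome X, 12902948 to 12903007 of mm9), and processed copies of the gene may share its signal. Of 7 tested Gapdh probes, only this one is given here. The call in PP was also lost without PP Treg replicate 2 (0.96).

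Phosphoglycerate kinase (Pgk1) and phosphoglycerate mutase (Pgam1) follow. Pgam1 (chromosome 19, 41992898 to 41992957, + strand of mm9) separated follicular from other cells on every slide. Pgam1 read 18358 and 21403 on the naive T arrays of pLN d12, 55712 and 52718 on the TFH arrays, 21367 and 22422 on the Treg arrays and 52630 and 49221 on the TFR arrays. For Pgam1 on d25, the naive T, TFH, Treg and TFR arrays read 22422, 52718, 21247 and 50605. In PP, Pgam1 intensities were 56580 and 56757 in GL7+ TFH, 53702 and 54158 in GL7- TFH, 28384 and 27440 in Treg and 75229 and 71780 in TFR cells. TFH and TFR arrays lay at 49221 to 75229 and naive T and Treg arrays at 18358 to 28384. TFH cells exceeded naive T cells by 1.45 ± 0.14 (adjusted p 4.96e-05), a fold of 2.73, and TFR cells exceeded Treg cells by 1.22 ± 0.14 (adjusted p 0.00054) in pLN d12, 1.25 ± 0.19 (adjusted p 0.00604) on d25 and 1.40 ± 0.14 (adjusted p 0.000154) in PP. GL7+ TFH cells of PP exceeded Treg cells by 1.02 ± 0.14 (adjusted p 0.000722). The Pgam1 call for GL7+ TFH against Treg cells of PP was lost without PP Treg replicate 2 (1.00) and with 75th percentile scaling alone (0.87). The Pgam1 call for TFR against Treg cells of d25 was lost with 75th percentile scaling alone (0.91). Pgk1 differed by 1.19 ± 0.38 (adjusted p 0.0551) between TFH and naive T cells and by 1.12 ± 0.38 (adjusted p 0.0953) between TFR and Treg cells of PP, neither called, and with slide as a fixed block both were (adjusted p 3.39e-05 and 9.25e-05). This Pgk1 probe is placed on chromosome 3, and the other, on the X chromosome, gave called differences of 1.12 ± 0.31 and 1.13 ± 0.31.

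The 3 enolases took different courses. Eno3, the enolase of muscle (chromosome 11, 70475953 to 70476012, + strand of mm9), went with the Foxp3 reporter in pLN. Eno3 read 1880 and 2446 on the naive T arrays of pLN d12, 1289 and 1245 on the TFH arrays, 4695 and 5624 on the Treg arrays and 7853 and 9298 on the TFR arrays. For Eno3 on d25, the naive T, TFH, Treg and TFR arrays read 2109, 1268, 6030 and 12697. In PP, Eno3 intensities were 603 and 572 in GL7+ TFH, 615 and 776 in GL7- TFH, 4441 and 4724 in Treg and 1042 and 1412 in TFR cells. In pLN the order was TFR, Treg, naive T and TFH on each slide, with TFR arrays at 7853 to 12697 and TFH arrays at 1245 to 1289, whereas in PP the Treg arrays were highest and the TFR arrays at 1042 and 1412. Treg cells exceeded naive T cells by 1.26 ± 0.21 (adjusted p 0.00657) and TFR cells exceeded TFH cells by 2.75 ± 0.21 (adjusted p 6.07e-05) in pLN d12 and 1.05 ± 0.21 (adjusted p 0.0203) in PP. TFR minus Treg was 0.73 ± 0.21 (adjusted p 0.0498) in pLN d12, under the minimum size, and -1.92 ± 0.21 (adjusted p 0.000282) in PP. GL7+ TFH cells of PP were lower than Treg cells by a difference of -2.96 ± 0.21 (adjusted p 1.45e-05), a fold of 7.8. The Eno3 call for Treg against naive T cells was lost without pLN d12 naive replicate 1 or pLN d12 Treg replicate 2 (1.07 to 1.13). The Eno3 call for TFR against GL7+ TFH cells of PP was lost without any 1 of PP TFH GL7+ replicate 1, PP TFH GL7+ replicate 2 or PP TFR replicate 2 (0.83 to 1.09), with normexp background (0.96) and without slide 4 (1.30).

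Eno2, the enolase of neurons (chromosome 6, 124710388 to 124710447, - strand of mm9), was dim. Eno2 read 117 and 66 on the naive T arrays of pLN d12, 181 and 107 on the TFH arrays, 146 and 97 on the Treg arrays and 184 and 173 on the TFR arrays. For Eno2 on d25, the naive T, TFH, Treg and TFR arrays read 84, 155, 145 and 278. In PP, Eno2 intensities were 363 and 309 in GL7+ TFH, 297 and 263 in GL7- TFH, 191 and 204 in Treg and 450 and 598 in TFR cells. It was below background on 1 of 2 naive T and 1 of 2 Treg arrays of pLN d12 and on the naive T and Treg arrays of d25, and the PP TFR arrays were the highest 2 of all. TFR cells of PP exceeded Treg cells by 1.39 ± 0.33 (adjusted p 0.0205). The Eno2 call for TFR against Treg cells of PP was lost without any 1 of PP Treg replicate 1, PP Treg replicate 2 or PP TFR replicate 2 (1.19 to 1.44) and without slide 4 (1.55). Eno1, the enolase of most tissues, was called nowhere and its TFH minus naive T difference was -0.38 ± 0.25 (adjusted p 0.376). Its only probe is placed on chromosome 2, away from the gene on chromosome 4. Pkm, the pyruvate kinase that follows enolase, gave 0.96 ± 0.40 (adjusted p 0.135), 0.76 ± 0.40 (adjusted p 0.306) and 1.17 ± 0.40 (adjusted p 0.0934) in the 3 follicular comparisons, none called.

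At the end of the pathway, pyruvate is reduced to lactate by lactate dehydrogenase or enters the mitochondrion through pyruvate dehydrogenase, which the kinases Pdk1, Pdk2 and Pdk3 switch off. Pdk1 lies at chromosome 2, 71739688 to 71739747, + strand of mm9. Pdk1 read 9027 and 9990 on the naive T arrays of pLN d12, 1856 and 2474 on the TFH arrays, 3940 and 4328 on the Treg arrays and 1436 and 1535 on the TFR arrays. For Pdk1 on d25, the naive T, TFH, Treg and TFR arrays read 9464, 2179, 4542 and 1441. On slide 4 of PP, Pdk1 intensities were 1327 in GL7+ TFH, 1255 in GL7- TFH, 2220 in Treg and 1040 in TFR cells, and on slide 5 they were 2525 in GL7+ TFH, 2790 in GL7- TFH and 2255 in TFR cells. The Treg array of slide 5 was higher than those 3, and the geometric mean of both Treg arrays was 3378. On every slide the TFR array was the lowest for Pdk1, in pLN the naive T array was the highest, and on both PP slides the Treg array was. TFH cells were lower than naive T cells by a difference of -2.15 ± 0.52 (adjusted p 0.0147). TFR minus Treg was -1.48 ± 0.52 (adjusted p 0.104) in pLN d12 and -1.14 ± 0.52 (adjusted p 0.222) in PP, and Treg minus naive T was -1.20 ± 0.52 (adjusted p 0.408). These 3 were not called, but were with slide as a fixed block (adjusted p 0.000107, 0.000134 and 0.000252). The Pdk1 call for TFH against naive T cells of pLN d12 was lost without any 1 of pLN d12 naive replicate 1, pLN d12 TFH replicate 1 or pLN d12 naive replicate 2 (-2.22 to -1.94).

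Pdk3, another of these kinases (chromosome X, 91010227 to 91010286, - strand of mm9), moved the other way. Pdk3 read 1741 and 1517 on the naive T arrays of pLN d12, 3797 and 3930 on the TFH arrays, 2535 and 2147 on the Treg arrays and 4482 and 4535 on the TFR arrays. For Pdk3 on d25, the naive T, TFH, Treg and TFR arrays read 1815, 3863, 2426 and 4525. In PP, Pdk3 intensities were 5509 and 4999 in GL7+ TFH, 5417 and 4868 in GL7- TFH, 3479 and 2544 in Treg and 5939 and 4904 in TFR cells. In pLN the TFH and TFR arrays lay at 3797 to 4535 and the naive T and Treg arrays at 1517 to 2535, and on each PP slide the Treg array was the lowest. TFH cells exceeded naive T cells by 1.25 ± 0.19 (adjusted p 0.000972), and TFR minus Treg was 0.95 ± 0.19 (adjusted p 0.00935) in pLN d12 and 0.86 ± 0.19 (adjusted p 0.0146) in PP, both under the minimum size. Of the lactate dehydrogenases, Ldha, the form that favours lactate, differed by 0.68 ± 0.14 (adjusted p 0.00508) between TFH and naive T and by 0.62 ± 0.14 (adjusted p 0.0151) from Treg to TFR cells of pLN d12, both under the minimum size. Ldhb, the form of heart, gave -0.89 ± 0.18 (adjusted p 0.00522) and -0.26 ± 0.18 (adjusted p 0.451) there, and was called higher in TFR than in TFH cells (1.05 ± 0.18 (adjusted p 0.00599) in pLN d12 and 1.33 ± 0.18 (adjusted p 0.00192) in PP). The Ldhb call for TFR against TFH cells of pLN d12 was lost without pLN d12 TFH replicate 1 or pLN d12 TFR replicate 2 (0.87 to 0.89). Without slide 4, which leaves 1 array per PP group, the call in PP was lost as well (adjusted p 0.0883), though the difference was no smaller. Pdk2 and Pdha1, a subunit of pyruvate dehydrogenase, were called in none of the 3 follicular comparisons.

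The pentose phosphate branch, which yields NADPH and ribose, and the phosphoglucomutases gave no call in any of 18 comparisons, although the F test over the 12 groups called Tkt (adjusted p 0.00354) and Pgm2 (adjusted p 0.00153). Over G6pdx, Pgd, Tkt, Taldo1, Pgm1 and Pgm2 the TFH minus naive T difference lay between -0.23 and 0.48 in pLN d12, and the TFR minus Treg difference lay between -0.09 and 0.54 in pLN d12 and between -0.49 and 0.99 in PP. Pgm2 had the 0.99 (SE 0.13, adjusted p 0.000785), just under the minimum size, and was called without slide 4 (a difference of 1.01, adjusted p 0.0395). Its probe carries an accession that RefSeq now names Pgm1, while the probe deposited as Pgm1 is now named Pgm2. Tkt, a transketolase, differed by -0.89 ± 0.16 (adjusted p 0.00495) between PP and pLN in TFR cells. Tigar, a phosphatase that diverts sugar into this branch, gave -0.29 ± 0.13 (adjusted p 0.17) for TFH minus naive T and -0.88 ± 0.13 (adjusted p 0.00209) for TFR cells of PP minus pLN.

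**Figure D3:**
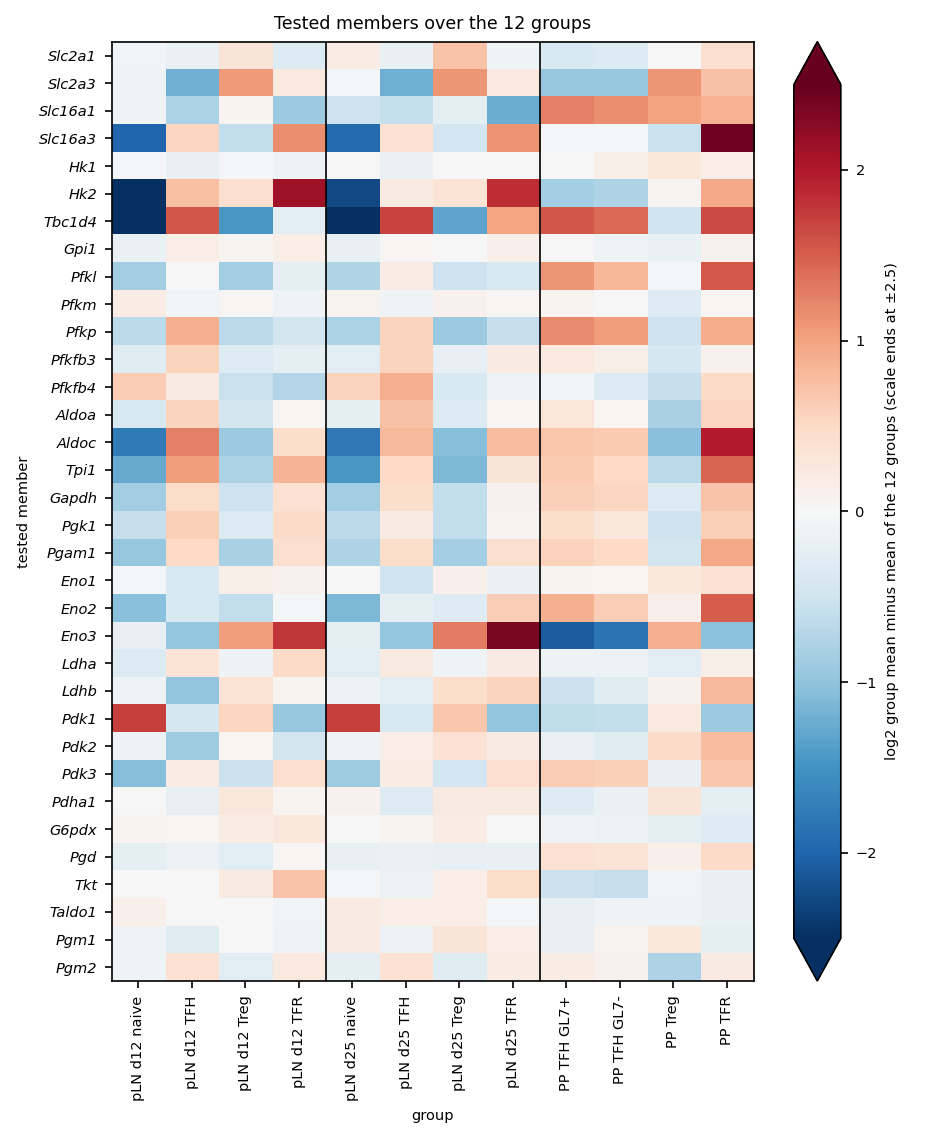
Mean log2 normalised intensity of 34 tested members (rows, by role) in 12 groups (columns), each minus the mean of the 12 group means of that gene, on a scale from -2.5 to 2.5. Red is above and blue below the mean of the gene; Hk2, Tbc1d4, Aldoc and Eno3 carry strong colours, while the rows of the pentose phosphate branch are pale.

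The same cell type was also compared between PP and pLN d12. In TFR cells 8 members were higher and 1 lower in PP (5.74% and 5.39% of all probes). TFH cells differed for 0 higher and 1 lower (2.36% and 2.18%), and Treg cells for 0 of 34 (2.24% in either direction, and 6 members at an unadjusted p under 0.05). Among TFR cells Tbc1d4 was higher in PP by 1.92 ± 0.29 (adjusted p 0.00234), Pfkl by 1.75 ± 0.33 (adjusted p 0.00638), Aldoc by 1.55 ± 0.25 (adjusted p 0.00334), Eno2 by 1.54 ± 0.33 (adjusted p 0.0113) and Pfkp by 1.39 ± 0.21 (adjusted p 0.0024). Slc16a3, Pdk2 and Pfkfb4 were higher by 1.26, 1.23 and 1.22 (adjusted p 0.00918, 0.0414 and 0.00595). Eno3 was lower in PP TFR cells by a difference of -2.82 ± 0.21 (adjusted p 8.5e-05), a fold of 7.05, and in TFH cells by -1.11 ± 0.21 (adjusted p 0.0157). The second probes of Tbc1d4 and Pfkp gave -0.79 ± 0.47 and 0.58 ± 0.28, neither called. The Slc16a3 call for TFR cells of PP against pLN was lost without pLN d12 TFR replicate 1 or PP TFR replicate 1 (1.11 to 1.15), with 75th percentile scaling alone (0.99) and without slide 4 (1.11). The Pdk2 call for TFR cells of PP against pLN was lost without any 1 of 7 arrays (either array of pLN d12 TFH, pLN d12 Treg or pLN d12 TFR, and PP TFR replicate 1, at 0.86 to 1.30), with every probe tested (1.23), with no moderation (1.23) and without slide 4 (0.86). The Eno2 call for TFR cells of PP against pLN was lost without any 1 of pLN d12 TFR replicate 1, pLN d12 TFR replicate 2 or PP TFR replicate 2 (1.33 to 1.59) and without slide 4 (1.74). The Eno3 call for TFH cells of PP against pLN was lost without any 1 of pLN d12 TFH replicate 1, pLN d12 TFH replicate 2, PP TFH GL7+ replicate 1 or PP TFH GL7+ replicate 2 (-1.15 to -1.07), with normexp background (-0.98), with slide as a random block (-1.11) and without slide 4 (-1.15). In the same comparison of TFR cells, 3 of 4 follicular markers (Cxcr5, Pdcd1 and Bcl6) were higher in PP, 1 of 13 B-cell genes was (Cd22, with a median difference of 2.60 over the list), and 1 of 6 tested epithelial genes was (Cdh1, median 2.07).

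Proliferation genes were counted beside these results. Of 15 tested, 11 were lower in TFR cells of PP than in those of pLN d12, whereas 12 were higher in TFH than in naive T cells (median difference 3.90) and in TFR than in Treg cells of pLN (2.83) and 6 in TFR than in Treg cells of PP (1.73). Their part in the results was not tested.

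Tests of the difference between differences asked if the step from Treg to TFR cells, or the distance of TFR from TFH cells, was the same in both tissues. For TFR minus Treg, PP less pLN was positive for 0 called members and negative for 1 (0.346% and 0.202% of all probes). This was Eno3, by -2.65 ± 0.30 (adjusted p 0.00473), whose TFR minus Treg difference was 0.73 in pLN d12 and -1.92 in PP, so that the direction turned. For TFR minus TFH, Aldoc differed by 2.12 ± 0.36 (adjusted p 0.0329), from -0.82 in pLN d12 to 1.30 in PP, and Eno3 by -1.71 ± 0.30 (adjusted p 0.0371), from 2.75 to 1.05, 1 member each way (0.472% and 0.139%). In pLN d12 the step from naive T to TFH cells was larger than that from Treg to TFR cells for Tbc1d4 by 3.04 ± 0.41 (adjusted p 0.00399) and for Aldoc by 1.68 ± 0.36 (adjusted p 0.0432). For Eno3 the steps had opposite signs and about the same size, -0.76 and 0.73, and differed by -1.49 ± 0.30 (adjusted p 0.0306), which makes 2 called members positive and 1 negative (1.55% and 0.624%). The second Tbc1d4 probe gave 1.31 ± 0.66, which was not called. Without slide 4 all of these calls were lost, at -2.48 for Eno3 in the first test, 2.10 and -1.45 for Aldoc and Eno3 in the second, and 3.04, 1.68 and -1.49 for Tbc1d4, Aldoc and Eno3 in the third. The third test uses no array of slide 4, and its differences were unchanged.

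With slide as a fixed block, which compares the 4 groups within each slide, the same tests called 6, 6 and 5 members in place of 1, 2 and 3. The members added to the first were Pfkp, Slc2a1, Pfkfb4, Slc16a3 and Aldoc, with differences of 1.24, 1.09, 1.23, 1.22 and 1.68, all larger in PP. To the second it added Pfkp (1.13), Pfkfb4 (1.51), Tbc1d4 (1.91) and Slc16a3 (1.85), and to the third Pfkp (1.35) and Hk2, for which no size is given because its naive T level is only a bound. Shares of all probes under the fixed block are not given here. With slide as a random block the F test called 7360 of 22264 probes, against 3848 without a block. By that F test calls rose over the whole array. It is another test with another block, and shares under the fixed block are lacking. The added members can therefore not be read as a result about this pathway. The Aldoc call for the step from naive T to TFH against that from Treg to TFR cells was lost without any 1 of 13 arrays (either array of pLN d12 naive, pLN d12 Treg, pLN d12 TFR, PP TFH GL7+, PP TFH GL7- or PP TFR, and pLN d12 TFH replicate 1, at 1.38 to 1.89), with every probe tested (1.68), with no moderation (1.68) and without slide 4 (1.68). The Eno3 call for the step from naive T to TFH against that from Treg to TFR cells was lost without any 1 of 9 arrays (either array of pLN d12 TFH, pLN d12 Treg, pLN d12 TFR or PP TFH GL7+, and pLN d12 naive replicate 2, at -1.62 to -1.30) and without slide 4 (-1.49). The Aldoc call for TFR minus TFH between tissues was lost without any 1 of 11 arrays (either array of pLN d12 naive, pLN d12 TFR, PP TFH GL7+, PP TFH GL7- or PP TFR, and pLN d12 TFH replicate 1, at 1.83 to 2.19), with every probe tested (2.12), with no moderation (2.12) and without slide 4 (2.10). The Eno3 call for TFR minus TFH between tissues was lost without any 1 of 13 arrays (either array of pLN d12 TFH, pLN d12 Treg, pLN d12 TFR, PP TFH GL7+, PP TFH GL7- or PP Treg, and PP TFR replicate 1, at -1.83 to -1.49), with every probe tested (-1.71), with no moderation (-1.71) and without slide 4 (-1.45).

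**Figure D4:**
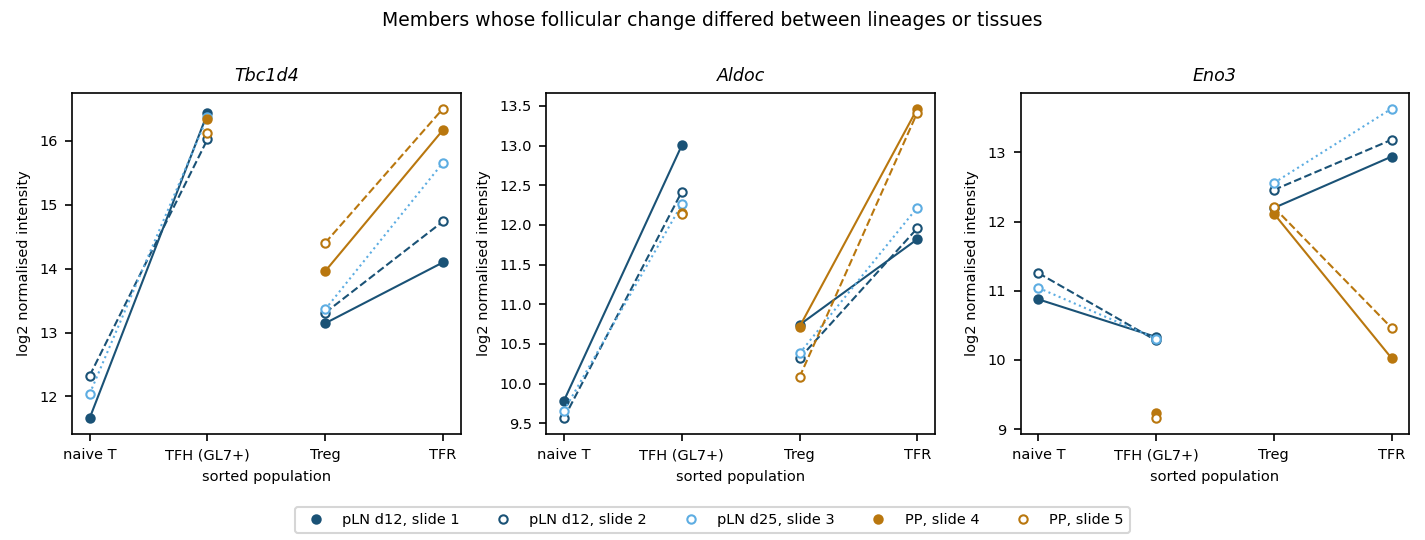
Log2 normalised intensity of Tbc1d4, Aldoc and Eno3 on each slide, with lines from naive T to TFH cells and from Treg to TFR cells of the same slide. In pLN the TFH line of Tbc1d4 is steeper than the TFR line, and the TFR line of Eno3 points up in pLN and down in PP.

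GL7+ and GL7- TFH cells of PP were compared as well. limma called 0 of 34, with 0 at an unadjusted p under 0.05, and 0.00898% of all probes were called. The 34 differences lay between -0.28 and 0.28, with a median SE of 0.24, and the methods' t-test called 0 as well. On d25 each group was 1 array, so these tests assume that the array varies like the groups with 2 arrays and share that spread with the tests of d12. TFH cells were higher than naive T cells for 8 members and lower for 1 (6.15% and 2.57% of all probes), 9 of the 11 called on d12, and TFR cells were higher than Treg cells for 4 and lower for 0 (4.05% and 1.25%), 4 of the 6 of d12. Between d25 and d12, 0 members were called in TFH cells (0.0314% of all probes) and 0 in TFR cells (0.00898%), with 3 and 3 members at an unadjusted p under 0.05. Tbc1d4 in TFR cells had the largest of these differences, 1.24 ± 0.36 (adjusted p 1), with the d25 array at 51744 above both d12 arrays. With slide as a fixed block, Hk2, Pdk1, Tpi1 and Eno3 were added to the d25 TFR calls and the count was 8. The share of all probes under that block is not given here. The Slc16a3 call for TFR against Treg cells of d25 was lost without slide 4 (1.62). The Tbc1d4 call for TFR against Treg cells of d25 was lost without slide 4 (2.30). The Aldoc call for TFR against Treg cells of d25 was lost without slide 4 (1.84). The Pfkp call for TFH against naive T cells of d25 was lost without slide 4 (1.35). These d25 differences use no array of slide 4 and were unchanged. The Hk2, Gapdh and Pgam1 calls of d25 were also lost under settings given with those genes.

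Genes around the pathway were counted from lists of names. Of 17 genes of the tricarboxylic acid cycle, 0 were called in the 3 follicular comparisons, and of 9 tested genes of the pyruvate dehydrogenase complex and mitochondrial pyruvate entry 0 were. Of 7 other pentose phosphate genes tested, 0 were called in pLN d12 and 1 was lower in PP. This was Prps1, which makes the activated ribose for nucleotides, with a difference of -1.09 ± 0.19 (adjusted p 0.00474). Of 5 other sugar carriers tested, 2, 1 and 2 were higher and 0 lower. Slc2a6, a glucose carrier of lysosomes, was higher in all 3, by 4.77 ± 0.50 (adjusted p 9.39e-05), 2.83 ± 0.50 (adjusted p 0.00516) and 5.05 ± 0.50 (adjusted p 0.000161). Slc2a8, an intracellular carrier, was higher by 1.46 ± 0.25 (adjusted p 0.00182) in TFH cells and 1.14 ± 0.25 (adjusted p 0.0133) in TFR cells of PP, with 0.93 ± 0.25 (adjusted p 0.0363) in TFR cells of pLN d12, under the minimum size. Of 12 tested further isozymes and neighbouring enzymes, 3 were higher and 1 lower in TFH than in naive T cells, 2 and 2 in TFR than in Treg cells of pLN d12, and 2 and 1 in PP. Pgam2, the phosphoglycerate mutase of muscle, was higher by 6.13 ± 0.27 (adjusted p 7.63e-07) in TFH than in naive T cells, of which 1 of 2 arrays was above background, at least 2.81-fold in TFR than in Treg cells of pLN d12, where Treg cells were below background, and by 4.67 ± 0.27 (adjusted p 1.38e-05) in PP. Ldhd, a lactate dehydrogenase for D-lactate, was lower in TFR than in Treg cells by a difference of -1.55 ± 0.41 (adjusted p 0.0357) in pLN d12 and -2.20 ± 0.41 (adjusted p 0.00589) in PP, and Adpgk, an ADP-dependent glucokinase, was lower in TFH than in naive T cells by a difference of -1.19 ± 0.35 (adjusted p 0.0383). The others called higher were Pfkfb1 and Galm in TFH cells, Pfkfb1 in TFR cells of pLN d12 and Pck2 in TFR cells of PP, and Pfkfb2 was called lower in TFR cells of pLN d12, where both groups were below background. Pygm, the glycogen phosphorylase of muscle, was lower in all 3 (-2.85 ± 0.33 (adjusted p 0.000196), -1.41 ± 0.33 (adjusted p 0.0219) and -1.61 ± 0.33 (adjusted p 0.0108)), alone among 14 genes of glycogen and hexose side branches. Psat1, an enzyme that draws a glycolytic intermediate into serine, was higher in all 3 (1.95 ± 0.24 (adjusted p 0.000305), 1.61 ± 0.24 (adjusted p 0.00232) and 1.31 ± 0.24 (adjusted p 0.00596)).

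Hif1a was read among the regulators. Hif1a read 2837 and 2675 on the naive T arrays of pLN d12, 29826 and 19956 on the TFH arrays, 4556 and 3832 on the Treg arrays and 6044 and 7765 on the TFR arrays. In PP, Hif1a intensities were 30419 and 29651 in GL7+ TFH, 23028 and 23710 in GL7- TFH, 5781 and 8977 in Treg and 35303 and 35903 in TFR cells. The d25 arrays of naive T, TFH, Treg and TFR cells read 2818, 24970, 3302 and 10651 for Hif1a. TFH arrays of both tissues and PP TFR arrays lay at 19956 to 35903, and TFR arrays of pLN d12 at 6044 and 7765. Hif1a was higher in TFH than in naive T cells by 3.15 ± 0.25 (adjusted p 1.75e-05), and in TFR than in Treg cells of PP by 2.31 ± 0.25 (adjusted p 0.000264), with 0.71 ± 0.25 (adjusted p 0.101) in pLN d12, which was not called. TFR cells of PP exceeded those of pLN d12 by 2.38 ± 0.25 (adjusted p 0.000421). Over the 12 group means, Pearson's r with Hif1a was 0.97 for Tbc1d4, 0.94 for Gapdh, 0.93 for Pfkp, 0.92 for Aldoc and Pgam1 and 0.89 for Tpi1. It was 0.47 for Ldha, 0.35 for Hk2, -0.21 for Eno1, -0.43 for Slc2a1, -0.56 for Slc2a3 and -0.80 for Pdk1. High r was not particular to Hif1a. With Bcl6, r was 0.92 for Tbc1d4, 0.90 for Gapdh and Pgam1, 0.95 for Pfkp, 0.88 for Aldoc and 0.85 for Tpi1. These are descriptions over group means that share slides and the contrast of follicular with other cells. Among members, Tpi1 and Aldoc had r of 0.98. Of 16 tested HIF-1 targets outside the pathway, 1 was higher (Egln3) and 1 lower (Ndrg1) in TFH than in naive T cells, 0 were higher and 1 lower (P4ha1) in TFR than in Treg cells of pLN d12, and Egln3 and Vegfa were higher in PP, Vegfa at least 2.65-fold.

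Of 21 tested regulators, 4 were higher and 4 lower in TFH than in naive T cells, 2 and 2 in TFR than in Treg cells of pLN d12, and 3 and 2 in PP. Mafg, a small Maf transcription factor, and Bcl6, the factor that defines follicular T cells, were higher in all 3 follicular comparisons, Bcl6 by 3.33 ± 0.32 (adjusted p 5.6e-05), 1.28 ± 0.32 (adjusted p 0.0277) and 3.19 ± 0.32 (adjusted p 0.000178). Myc, an activator of growth and glycolysis genes, was lower in TFH than in naive T cells (-1.92 ± 0.32, adjusted p 0.00188) and in TFR than in Treg cells of PP (-1.65 ± 0.32, adjusted p 0.00801). Myc read 8898 and 8885 on the naive T arrays of pLN d12, 1898 and 2909 on the TFH arrays, 16772 and 12964 on the Treg arrays and 8651 and 7916 on the TFR arrays. In PP, Myc intensities were 2007 and 3241 in GL7+ TFH, 2058 and 3405 in GL7- TFH, 13058 and 17723 in Treg and 4371 and 5376 in TFR cells. Treg arrays were highest for Myc on each of these slides and TFH arrays lowest. Txnip, which restrains glucose uptake, was lower in TFH than in naive T cells by a difference of -1.78 ± 0.35 (adjusted p 0.00503) and in TFR than in Treg cells of pLN d12 by -1.60 ± 0.35 (adjusted p 0.0156). On the PP arrays Txnip read 44666 and 49715 in Treg and 19163 and 24252 in TFR cells, a fall that was not called. Pik3ip1, an inhibitor of phosphoinositide 3-kinase, was lower in all 3, and in TFH against naive T cells Irf4 was also called higher and Foxo1 lower.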

How the data were processed

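Single-colour Agilent arrays were scanned by the authors with Feature Extraction 10.7.3.1, and the deposited scanner files hold the processed signal intensity of each of 157716 features together with the software's outlier, saturation and background flags. The deposited series matrix holds the authors' own normalised intensity values and served to pick the brightest probe of each gene and as an alternative. Here the features of a probe (4 each, outliers left out by flag, by the interquartile fence of the study's methods and by a pixel CV above 0.5) were averaged as logs. After quantile normalisation each array was brought to 1500 at its 75th percentile, values under 20 were set to 20, and log2 was taken. A probe was above background on an array with at least 3 features flagged so, and 22264 of 39429 probes were tested with limma 3.58.1 in R 4.3.3, in 1 model of 12 group means (8 residual degrees of freedom). A call needed an adjusted p under 0.05 and a log2 difference of at least 1, and for the F test p under 0.001 and adjusted p under 0.005. A group below background on all its arrays gives only a bound, taken against the dimmest signals above background on each array. All members could be named; array values are given for members called in at least 1 of 3 follicular comparisons. Members and lists were chosen with earlier results of these data known. Replicate numbers follow accession order, and nothing says that pools came from separate experiments, so p-values measure only the spread between these samples. The number of arrays limits the precision. Tissue, day and slide cannot be told apart. Scripts were tested on simulated arrays with independent errors. The real arrays went together by slide (correlation 0.742 as a random block), so the shares below may not hold for them. An estimate under 1 cannot be called, which limits the share for a true change of 1. A true log2 change of 1 was called for 24% of changed probes in TFH against naive T cells of pLN d12. It was called for 14% in TFR against Treg cells of PP, 0% for that step between tissues and 2% for TFH on d25. For a change of 3 the shares were 72%, 78%, 54% and 60%. The lack of a call is therefore not evidence of no change.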

Additional observations from a re-analysis of the deposited data

Results flagged for a closer look

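In 6 cases the difference between a pair of groups itself differed between tissues or lineages by the interaction test of limma. For Eno3, TFR minus Treg was positive in pLN d12 and negative in PP, a difference of -2.65 (adjusted p 0.00473). For Aldoc, TFR minus TFH was negative in pLN d12 and positive in PP, a difference of 2.12 (adjusted p 0.0329), and for Eno3 it was positive in both and less so in PP, a difference of -1.71 (adjusted p 0.0371). In pLN d12, the step from naive T to TFH cells exceeded that from Treg to TFR cells by 3.04 for Tbc1d4 (adjusted p 0.00399) and 1.68 for Aldoc (adjusted p 0.0432), while for Eno3 the steps had opposite signs, down to TFH and up to TFR cells, and differed by -1.49 (adjusted p 0.0306). Without slide 4, which leaves 1 array per PP group, the calls of all 6 were lost. The differences between lineages in pLN d12 use no array of that slide and were unchanged.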

How the results depend on the processing

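All 81 called differences of single members kept their sign under every one of 2381 settings and left-out arrays, and 268 of these ended a call, 159 of them among left-out arrays. Leaving out an array of a group that was not compared cannot change a difference. Nor can removing moderation, testing every probe or fitting the compared groups alone. In those cases the sign could not turn, and their share of the 2381 is not given here. The deposited matrix ended 0 of 81 calls, the random slide block 1, leaving features unfiltered 1, normexp background 3, 75th percentile scaling alone 6, no moderation 9, every probe tested 10 and leaving out slide 4 27. Fits of the compared groups alone ended 52 of 68. Counts moved as follows. With the compared groups alone, 0 members were called for Treg against naive T, TFR against TFH in pLN d12, TFR against Treg and against TFH in PP, TFH between tissues and the 3 interaction tests, 4 for GL7+ TFH against Treg in PP and 1 for TFR between tissues, fewer arrays leaving fewer degrees of freedom. With no fold minimum, 12 were called for TFR against Treg and 8 for TFR against TFH in pLN d12, and 13 for GL7+ TFH against Treg in PP. Without slide 4, 2 were called for TFR against TFH in PP, 2 for TFR against Treg on d25, 2 by the F test, and 0 for TFH between tissues and the 3 interaction tests. TFH between tissues gave 2 with normexp, 2 with no feature filter and 2 with the random block. TFR minus TFH by tissue gave 0 with every probe tested and 0 with no moderation. The cause was not tested.

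Replicate numbers go with slides here, so the replicate block is the slide. With slide as a fixed block or a random one (correlation 0.742), the interaction tests called 6, 6 and 5 members and TFR against Treg on d25 called 8, while of 71 calls it could test the fixed block lost 0, and it gained 26. Calls over all probes rose as well, by the F test from 3848 to 7360 with the random block. No fixed block could be fitted for tissues or days, which lie on separate slides.

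Leaving out 1 array at a time, in pLN d12, gave 9 to 12 calls for TFH against naive T, 3 to 6 for Treg against naive T, 2 to 6 for TFR against Treg and 3 to 6 for TFR against TFH. The counts of 3 came without naive replicate 1 or either Treg array, and without TFH replicate 1. In PP it gave 6 to 12 for TFR against Treg, 5 to 10 for GL7+ TFH against Treg, both lowest without Treg replicate 2, 3 to 6 for TFR against TFH, lowest without either GL7+ TFH array or TFR replicate 2, and 0 to 0 for GL7+ against GL7-. Between tissues it gave 0 to 0 for Treg, 0 to 3 for TFH and 6 to 9 for TFR cells, with 0 for TFH cells without any of the 4 TFH arrays compared and 3 without either naive T array of pLN d12. The interaction tests gave 1 to 1 for TFR minus Treg, 0 to 2 for TFR minus TFH and 1 to 3 for lineages. On d25 it gave 8 to 9 and 4 to 4, between days 0 to 0 in both cell types, and by the F test 11 to 17, lowest without either TFR array of pLN d12. Reading each gene on its own chromosome and adding Pkm and Tigar, chosen after seeing the data, changed no count by more than 1.5 times. Signals near background, as of Hk2 in naive T cells and Eno2, limit what these arrays can show.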
